A study of Mus musculus with 10 samples.

Results

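The mitochondrial carriers of the solute carrier family 25 (SLC25) were examined in embryonic mouse hearts with and without the coxsackie–adenovirus receptor (CAR). The members were all transcript clusters of the array that carry the symbol of a single gene of the form Slc25a plus a number, with the brightest cluster taken where a gene had several. This gave 46 genes of 19938 with a cluster of their own. Hearts came from E10.5 embryos of CAR KO or WT genotype, bred from heterozygous CAR +/- parents, and each genotype was represented by 5 samples of 3 pooled hearts. The CAR KO embryos carry the mutated Cxadr allele in every cell, not in cardiomyocytes alone, and the WT embryos are the CAR +/+ controls of the same line (B6.Cg-Cxadr tm1/Fgr). The labels name no treatment. RNA was hybridised to Affymetrix Mouse Gene 1.0 ST arrays, where a transcript cluster pools probes laid over exons. Most clusters name 1 gene, while others name several or none. Every value below is a log2 signal or a difference of log2 signals.

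SLC25 proteins sit in the inner mitochondrial membrane, with a few exceptions in other membranes, and move nucleotides, phosphate, carboxylates, amino acids, cofactors and iron between cytosol and matrix. Most work as exchangers, so that export of one solute is tied to import of another. In the heart they are best known for carrying ADP in and ATP out, for the malate–aspartate shuttle that brings reducing equivalents into mitochondria, and for the entry of acylcarnitines for fatty acid oxidation. In red cell precursors, members of the family supply iron and glycine for heme synthesis.

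The labels were checked on Cxadr, the gene of CAR. Its signal was 6.46 ± 0.17 in CAR KO and 8.38 ± 0.18 in WT hearts (SD, n = 5 each), a log2 fold change of -1.91 (standard error 0.10, adjusted p = 1.4e-05 from limma), and the genotypes did not overlap. It was the only one of 28944 clusters that passed the adjusted threshold of 0.05, which is 0.00345% of all tested. All 12 cardiomyocyte markers examined were above the background level of 6.51, which is the 95th percentile of 1196 odorant and vomeronasal receptor clusters. The mean of these markers lay between 12.83 and 13.18 in CAR KO and between 12.90 and 13.17 in WT samples, with sample 5 the lowest of each genotype. The samples also held transcripts of other tissues. The mean of 11 liver and yolk sac markers ran from 6.88 to 10.44 in CAR KO and from 7.41 to 9.40 in WT samples, and that of 10 erythroid markers from 10.54 to 11.03 in CAR KO and from 10.51 to 11.18 in WT samples. In RNA of whole hearts, fewer cells of a type and less RNA per cell cannot be told apart.

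Transcripts for ATP export gave the highest signals of the family. Slc25a4 (ANT1), the ADP/ATP carrier of heart and skeletal muscle, had signals of 13.51, 13.49, 13.58, 13.55 and 13.41 in CAR KO samples 1 to 5, against 13.46, 13.52, 13.61, 13.59 and 13.41 in WT samples 1 to 5. Slc25a5 (ANT2), the form known from dividing cells, had signals of 13.17, 13.14, 13.18, 13.27 and 13.08 in CAR KO samples 1 to 5, against 13.13, 13.19, 13.20, 13.17 and 12.98 in WT samples 1 to 5. Both lay above 13 in nearly every sample, and the genotypes overlapped. Slc25a3, which carries phosphate and also copper into the matrix, had signals of 12.53, 12.58, 12.58, 12.55 and 12.43 in CAR KO samples 1 to 5, against 12.48, 12.47, 12.53, 12.52 and 12.41 in WT samples 1 to 5. For these 3 genes, sample 5 was the lowest of each genotype, as it was for the cardiomyocyte markers. Over all genes that pattern was common. It held for 9 of the 46 carriers (19.6%) and for 3992 of all 19938 genes, a like share. CAR KO sample 5 alone was the lowest of its genotype for 22 carriers (47.8%) and for 42.4% of all genes.

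The promoters of these 3 genes are shown because they drive the main route of ATP and phosphate exchange and include both of the brightest members. Each window runs from 250 bases before to 50 bases after the annotated start (RefSeq, GRCm38.p6): chr8:46211013-46211312 on the minus strand for Slc25a4, chrX:36795347-36795646 on the plus strand for Slc25a5 and chr10:91123918-91124217 on the minus strand for Slc25a3. Capitals mark matches, on either strand, to TATAA (the TATA box), CCGGAAG (the core bound by ETS factors) and the NRF1 motif (GCGC and TGCGC with any base between). No matches overlap here.
Slc25a4: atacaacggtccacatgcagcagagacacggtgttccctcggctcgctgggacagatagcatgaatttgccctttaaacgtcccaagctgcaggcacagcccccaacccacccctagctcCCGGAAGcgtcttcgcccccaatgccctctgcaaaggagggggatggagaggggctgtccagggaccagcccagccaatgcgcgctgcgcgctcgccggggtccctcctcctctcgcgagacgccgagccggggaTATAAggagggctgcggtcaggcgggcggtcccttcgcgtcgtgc
Slc25a5: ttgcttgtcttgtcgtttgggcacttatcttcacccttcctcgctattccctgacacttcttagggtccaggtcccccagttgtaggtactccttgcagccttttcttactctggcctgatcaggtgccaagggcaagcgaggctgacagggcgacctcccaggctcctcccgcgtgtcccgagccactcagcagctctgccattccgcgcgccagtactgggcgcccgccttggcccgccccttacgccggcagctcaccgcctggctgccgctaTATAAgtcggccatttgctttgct
Slc25a3: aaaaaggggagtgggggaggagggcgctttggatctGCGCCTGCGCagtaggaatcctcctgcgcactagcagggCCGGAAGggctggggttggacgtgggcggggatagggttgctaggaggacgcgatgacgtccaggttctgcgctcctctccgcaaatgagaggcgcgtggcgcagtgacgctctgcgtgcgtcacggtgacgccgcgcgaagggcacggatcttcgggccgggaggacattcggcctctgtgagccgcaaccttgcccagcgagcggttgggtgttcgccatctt
Both ADP/ATP carrier promoters held TATAA, in each case after the annotated start, and Slc25a3 held none. Slc25a4 and Slc25a3 held CCGGAAG, and Slc25a3 held the NRF1 motif. The promoter table matched 36 of the 46 carriers with 46 windows. TATAA occurred in 5 of these windows (10.9%) and in 24.9% of all 32851 windows, CCGGAAG in 7 (15.2%) and in 8.86% of all, and the NRF1 motif in 2 (4.35%) and in 4.60% of all. These are matches of letters in a fixed window, and binding was not measured.

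Signals of the 46 carriers spread over more than 8 log2 units. By the mean over all samples, 4 carriers lay above 12, 17 in all above 10, 14 between 8 and 10, and 12 between the background level and 8. Only Slc25a31, Slc25a2 and Slc25a54 were not above background. Among all 19938 genes, 10 carriers were in the brightest 10% and 3 of them, Slc25a4, Slc25a5 and Slc25a12, in the brightest 1%. Slc25a36 was among the 10 by a cluster that stood among chromosome 2 genes. Its cluster on its own chromosome 9 had a mean of 9.96. That is below Slc25a46 (10.85), which was outside the brightest 10%. The order was nearly the same in both genotypes. When the carriers were ranked separately in CAR KO and WT hearts, 34 kept their place and none moved by more than 1. Clusters differ in their probes, so this is an order of signals and not of mRNA copies.

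**Figure D1:**
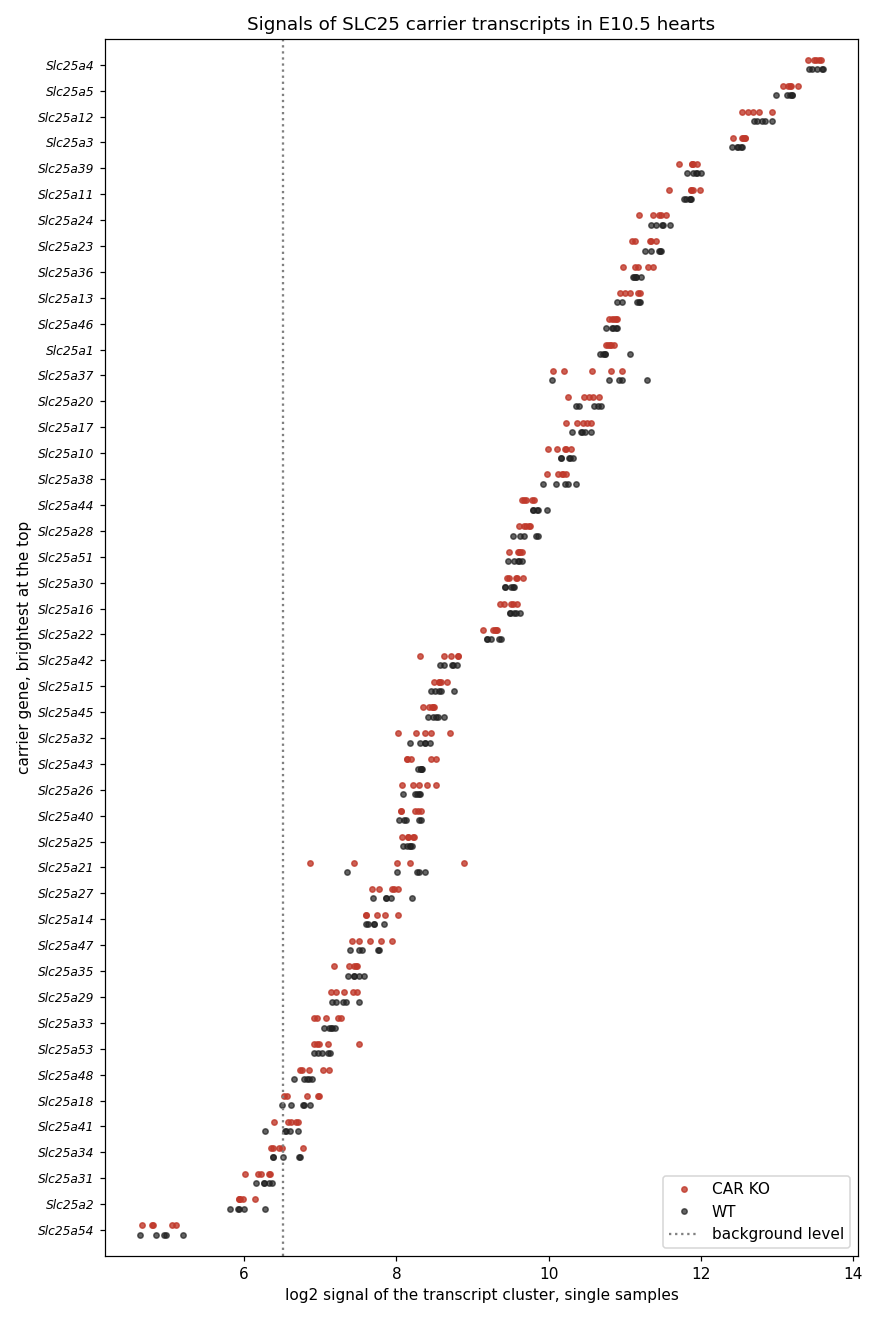
Log2 signal of 46 SLC25 carrier transcripts in single samples, CAR KO (red, upper row of each gene) and WT (black, lower row), 5 samples each, ordered by the mean over all samples; the dotted line marks the background level of 6.51. The genotypes overlap for every gene, and the samples spread most for Slc25a37 and Slc25a21.

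The rule of the brightest cluster chose among several clusters for 3 carriers. Slc25a5 stood at place 2 under this rule and also with the mean of its clusters. Slc25a5 had 3 clusters, and cluster identifiers on this array run in genomic order: 46 of the 50 clusters of the family stood among neighbours from the gene's own chromosome. The brightest Slc25a5 cluster, used above, stood among 10 of 10 neighbours from chromosome 5, where the annotation lists Gm5560, a pseudogene with Slc25a5 as a synonym, at chr5:97264751-97265987 (GRCm38.p6). The cluster among chromosome X genes, where Slc25a5 itself lies, gave 12.99 ± 0.07 in CAR KO and 12.97 ± 0.08 in WT hearts. A further cluster, among chromosome 1 genes, gave 12.81 ± 0.08 in CAR KO and 12.83 ± 0.07 in WT hearts (SD, n = 5 each). Clusters under the same gene symbol may share RNA on the array, so their signals are not taken as independent. Their sequences were not compared. The difference between genotypes was within 0.04 on the log2 scale for all 3. Slc25a36 likewise took its value of 11.19 ± 0.15 in CAR KO and 11.14 ± 0.04 in WT hearts from a cluster among chromosome 2 genes, while the cluster at its own place on chromosome 9 gave 9.97 ± 0.06 in CAR KO and 9.95 ± 0.10 in WT hearts. Slc25a40 was taken from its own chromosome, and its other cluster, among chromosome 9 genes, was at 7.72 ± 0.24 in CAR KO and 7.92 ± 0.17 in WT hearts. There CAR KO minus WT gave -0.20 (95% confidence limits -0.45 and 0.06, unadjusted p = 0.121 from limma), against 0.02 in the cluster used.

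In GRCm38.p6, Slc25a4 lies at chr8:46207168-46211062. The remaining ADP/ATP carrier, Slc25a31 (ANT4), belongs to male germ cells in mice. Its signals were 6.19, 6.21, 6.33, 6.34 and 6.01 in CAR KO samples 1 to 5, against 6.16, 6.33, 6.27, 6.36 and 6.26 in WT samples 1 to 5, all below the background level. With the background set at the receptor median plus 1 (5.74), Slc25a31 was above it.

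**Figure D2:**
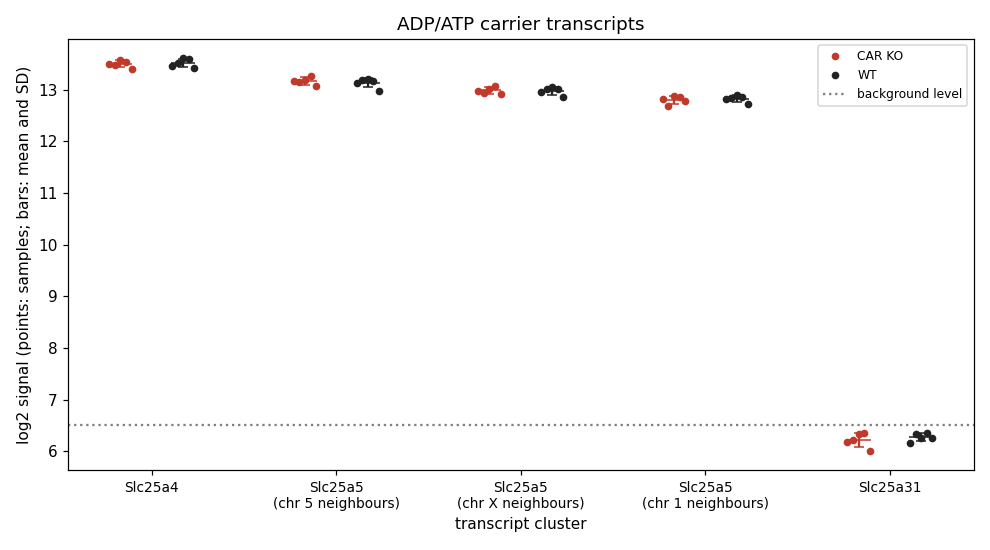
Log2 signal of the ADP/ATP carrier clusters in single samples of CAR KO (red, left) and WT (black, right) hearts, with mean and SD bars (n = 5 each); the Slc25a5 clusters are named by the chromosome of their neighbours on the array. Slc25a4 and all 3 Slc25a5 clusters lie above 12.6 in every sample, and Slc25a31 lies below the dotted background level.

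The ATP-Mg/phosphate carriers adjust the adenine nucleotide content of the matrix, and most of them respond to calcium. Slc25a24 had signals of 11.45, 11.18, 11.48, 11.37 and 11.53 in CAR KO samples 1 to 5, against 11.48, 11.40, 11.59, 11.50 and 11.34 in WT samples 1 to 5. Slc25a23 had signals of 11.41, 11.33, 11.13, 11.10 and 11.34 in CAR KO samples 1 to 5, against 11.46, 11.34, 11.26, 11.47 and 11.44 in WT samples 1 to 5. Both were bright, and for Slc25a23 CAR KO samples 3 and 4 lay below all WT samples while the other CAR KO samples lay among them. The log2 difference (CAR KO minus WT) of Slc25a23 was -0.13, with 95% confidence limits (CI) at -0.30 and 0.03 (unadjusted p = 0.102, adjusted p = 0.99997 from limma). Slc25a25 was far dimmer at 8.17 ± 0.06 in CAR KO and 8.16 ± 0.05 in WT hearts. Slc25a41, which lacks the calcium-binding part, was at the edge of background with 6.59 ± 0.12 in CAR KO and 6.53 ± 0.16 in WT hearts.

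Carriers of the malate–aspartate shuttle were bright as well. Slc25a12 (aralar), the calcium-regulated aspartate/glutamate carrier of heart, muscle and brain (chr2:71274270-71367781), had signals of 12.93, 12.68, 12.54, 12.62 and 12.76 in CAR KO samples 1 to 5, against 12.83, 12.81, 12.70, 12.93 and 12.73 in WT samples 1 to 5. CAR KO minus WT gave -0.10 (CI -0.27 to 0.07), and the genotypes overlapped. It was -0.15 without CAR KO sample 1, -0.05 without CAR KO sample 3, -0.06 without WT sample 4 and -0.06 with array weights. Without the 4 samples richest in liver transcripts it was -0.21 (unadjusted p = 0.0377, adjusted p = 0.805 from limma). Slc25a13 (citrin), its counterpart in liver and many other tissues, was at 11.08 ± 0.11 in CAR KO and 11.08 ± 0.14 in WT hearts. Slc25a11, which exchanges oxoglutarate for malate, had signals of 11.87, 11.87, 11.90, 11.98 and 11.58 in CAR KO samples 1 to 5, against 11.81, 11.85, 11.85, 11.87 and 11.78 in WT samples 1 to 5. Its WT samples lay close together, and CAR KO sample 5 lay below all others.

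Other carboxylate carriers followed at lower signals. Slc25a1 exports citrate for lipid synthesis and was at 10.80 ± 0.04 in CAR KO and 10.79 ± 0.16 in WT hearts. Slc25a10 exchanges dicarboxylates for phosphate and was at 10.17 ± 0.12 in CAR KO and 10.23 ± 0.07 in WT hearts. Slc25a20, which brings acylcarnitines into the matrix, ranged from 10.25 to 10.66 in CAR KO and from 10.36 to 10.69 in WT samples. None of them differed between the genotypes by more than 0.07 on the log2 scale. Slc25a21, which carries oxodicarboxylates such as 2-oxoadipate, had the widest spread of the family and is described further on.

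Of the amino acid and glutathione carriers, 10 of 11 were above background, and Slc25a39 was the brightest after Slc25a12. Slc25a39 takes glutathione into the matrix and is also linked to heme synthesis. Its signals were 11.95, 11.88, 11.89, 11.88 and 11.71 in CAR KO samples 1 to 5, against 11.90, 12.01, 11.81, 11.93 and 11.94 in WT samples 1 to 5. CAR KO sample 5 was the lowest and the other samples of both genotypes were mixed. Its relative Slc25a40 was at 8.19 ± 0.13 in CAR KO and 8.17 ± 0.13 in WT hearts. Slc25a38, which carries glycine for the first step of heme synthesis, was at 10.14 ± 0.10 in CAR KO and 10.17 ± 0.17 in WT hearts. Its lowest signals were in CAR KO sample 2 (9.98) and WT sample 3 (9.92), which were also the lowest of their genotypes in the mean of the erythroid markers. The glutamate carrier Slc25a22 was clearly above background at 9.27 ± 0.08 in CAR KO and 9.27 ± 0.09 in WT hearts, while Slc25a18, the other glutamate carrier, was at 6.77 ± 0.22 in CAR KO and 6.71 ± 0.14 in WT hearts. The ornithine carrier Slc25a15 was at 8.57 ± 0.06 in CAR KO and 8.57 ± 0.11 in WT hearts, and its testis and liver relative Slc25a2 was not above background at 5.99 ± 0.09 in CAR KO and 5.98 ± 0.17 in WT hearts. Slc25a29, a carrier of basic amino acids, was at 7.31 ± 0.14 in CAR KO and 7.30 ± 0.14 in WT hearts.

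Slc25a44, which carries branched-chain amino acids (chr3:88410494-88425141), had the smallest p of the family. Its signals were 9.81, 9.65, 9.67, 9.78 and 9.70 in CAR KO samples 1 to 5, against 9.98, 9.86, 9.80, 9.79 and 9.84 in WT samples 1 to 5. WT sample 1 was the highest of all, CAR KO sample 1 reached the lower WT samples, and the genotypes overlapped. The log2 difference was -0.13 (standard error 0.06, CI -0.25 to -0.0017), with an unadjusted p of 0.0474 and an adjusted p of 0.99997 from limma (0.796 to 0.99998 over the alternative fits). A two-sided exact permutation test of this gene gave p = 0.0317, where 5 samples against 5 cannot go below 0.00794. It was the only carrier with an unadjusted p under 0.05, or 1 of 46, where 2.4% of all clusters passed in either direction and 1.43% as lower in CAR KO. That share is near the background and Slc25a44 did not pass the adjusted test. The unadjusted p rose above 0.05 without CAR KO sample 2, 3 or 5 or WT sample 1, 2 or 5, after quantile normalization (0.0729), with array weights (0.196) and without the 3 or 4 samples richest in liver transcripts (0.134 and 0.106). The difference itself lay between -0.15 and -0.11 in these fits, except for -0.10 without WT sample 1 and -0.07 with array weights.

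Cofactor and pyrimidine nucleotide carriers were spread over the middle of the order, and all 8 measured were above background. Slc25a17, which works in the membrane of peroxisomes, was at 10.42 ± 0.13 in CAR KO and 10.44 ± 0.09 in WT hearts. Slc25a51 brings NAD into the matrix and was at 9.59 ± 0.07 in CAR KO and 9.57 ± 0.07 in WT hearts. Slc25a16 and Slc25a42 are both linked to coenzyme A. Slc25a16 was at 9.48 ± 0.09 in CAR KO and 9.54 ± 0.06 in WT hearts, and Slc25a42 was at 8.65 ± 0.21 in CAR KO and 8.69 ± 0.09 in WT hearts. Of the group, the widest spread belonged to Slc25a32, the folate and FAD carrier. It ranged from 8.02 to 8.70 in CAR KO and from 8.18 to 8.44 in WT samples. The S-adenosylmethionine carrier Slc25a26 was at 8.30 ± 0.17 in CAR KO and 8.24 ± 0.09 in WT hearts, and the pyrimidine nucleotide carrier Slc25a33 at 7.09 ± 0.16 in CAR KO and 7.13 ± 0.05 in WT hearts. For all of these the genotype means were within 0.07 on the log2 scale.

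The relatives of the uncoupling proteins were dim to moderate. Slc25a30 was at 9.55 ± 0.09 in CAR KO and 9.49 ± 0.06 in WT hearts, Slc25a27 at 7.88 ± 0.14 in CAR KO and 7.91 ± 0.19 in WT hearts and Slc25a14 at 7.76 ± 0.18 in CAR KO and 7.69 ± 0.09 in WT hearts. Slc25a46, which lies in the outer membrane and takes part in mitochondrial dynamics, was at 10.85 ± 0.04 in CAR KO and 10.84 ± 0.06 in WT hearts. It had the smallest spread of all 46 carriers, with a pooled SD of 0.050. In the group of outer membrane and unassigned carriers, Slc25a45, Slc25a43, Slc25a47, Slc25a35, Slc25a53, Slc25a48 and Slc25a34 followed. Their means over all samples ran from 8.48 down to 6.52. Slc25a45 had the third smallest p of the family, and the genotypes differed by -0.07 (CI -0.19 to 0.05, adjusted p = 0.99997 from limma). Its signals were 8.50, 8.48, 8.35, 8.46 and 8.43 in CAR KO samples 1 to 5, against 8.51, 8.62, 8.48, 8.42 and 8.54 in WT samples 1 to 5. WT samples 1, 2 and 5 lay above all CAR KO samples, while WT samples 3 and 4 lay among them. Slc25a47, known from hepatocytes, ranged from 7.42 to 7.94 in CAR KO and from 7.39 to 7.76 in WT samples. Slc25a54 was the dimmest carrier at 4.88 ± 0.19 in CAR KO and 4.92 ± 0.21 in WT hearts.

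Across the family, CAR KO and WT hearts lay close together. None of the 46 carriers passed an adjusted p under 0.05 from limma, the methods' t-test called none either, and for none were the ranges of the genotypes apart, which was the case for 0.461% of all genes. The median log2 fold change was -0.0071 over the carriers and 0.0074 over all genes. In CAR KO hearts 25 carriers were lower and 21 higher, and of all genes 45.8% were lower. Among genes above background, 7346 of 14655 were lower and the median was -0.00024. Of the 43 carriers above background, 23 were lower and the median was -0.0056. Missing the threshold is no evidence of equal levels, and the CI was therefore read for how large a change it allows. Changes beyond 1.5-fold, up or down, were outside the CI for 44 of 46 carriers and for 97.4% of all genes. For a limit of 1.2-fold this held for 36 carriers and for 61.3% of all genes. The 2 carriers past the wider limit were Slc25a37 and Slc25a21. No CI was widened for the many genes tested. By role, the median difference was -0.0013 for the 8 adenine nucleotide and phosphate carriers (4 lower, 4 higher) and 0.00063 for the 8 cofactor and pyrimidine carriers (4 lower, 4 higher). It was -0.0026 for the 11 amino acid and glutathione carriers (6 lower, 5 higher) and -0.04 for the 5 carboxylate and acylcarnitine carriers (3 lower, 2 higher). For the 3 relatives of uncoupling proteins it was 0.06 (1 lower, 2 higher). It was -0.03 for the 9 outer membrane and unassigned carriers (5 lower, 4 higher). Of the 2 iron carriers, Slc25a37 differed by -0.28 and Slc25a28 by -0.0087. Apart from Slc25a44, no member of any role had an unadjusted p under 0.05.

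**Figure D3:**
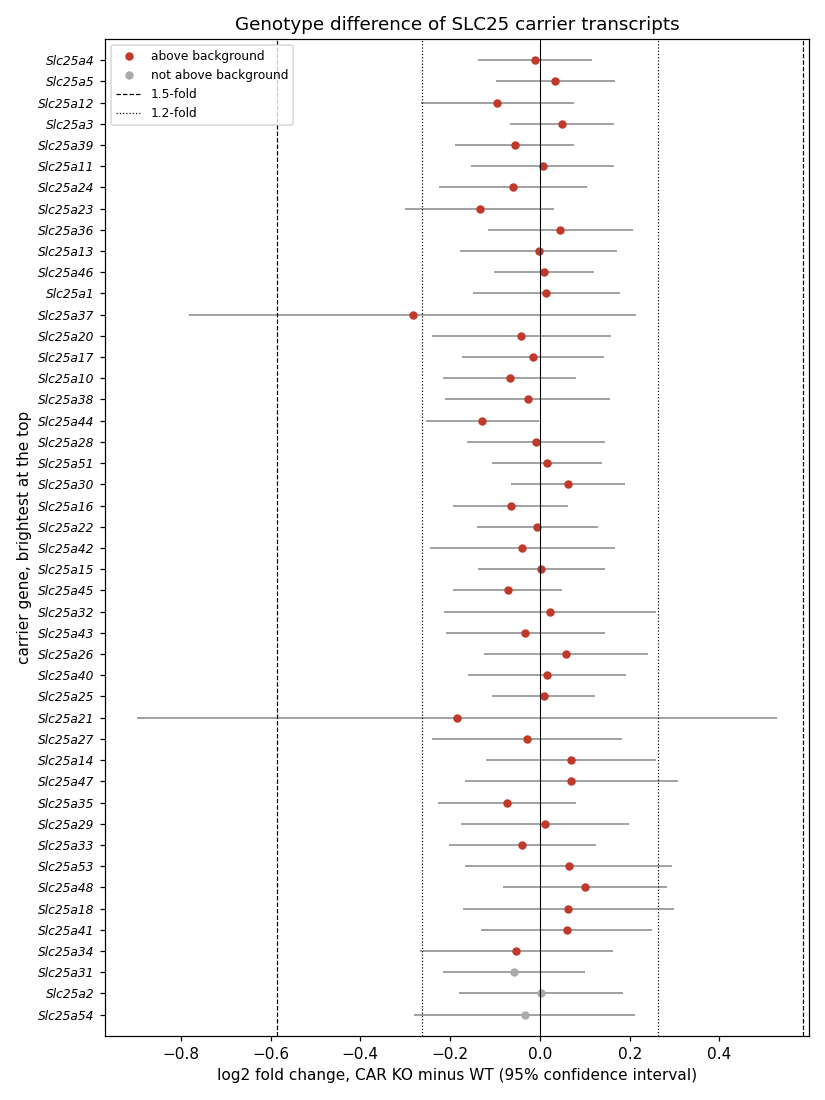
Difference in log2 signal, CAR KO minus WT, for each of the 46 carriers with its 95% confidence interval from limma, brightest gene at the top; grey points mark genes not above background, dashed lines a 1.5-fold and dotted lines a 1.2-fold change. All intervals but those of Slc25a37 and Slc25a21 stay inside the dashed lines, and that of Slc25a44 ends just below 0.

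The spread between samples was small for most carriers. The pooled SD within genotypes had a median of 0.118 over the family, against 0.128 over all genes above background, and was under 0.2 for 44 of 46. The exceptions were again Slc25a37 at 0.427 and Slc25a21 at 0.617. Slc25a37 (mitoferrin-1) brings iron into mitochondria of red cell precursors (chr14:69241848-69285544). Its signals were 10.96, 10.20, 10.82, 10.57 and 10.05 in CAR KO samples 1 to 5, against 11.29, 10.93, 10.04, 10.96 and 10.79 in WT samples 1 to 5. CAR KO samples 2 and 5 and WT sample 3 were low and the genotypes overlapped. CAR KO minus WT gave -0.28 (CI -0.78 to 0.21, unadjusted p = 0.238, adjusted p = 0.99997 from limma). Without WT sample 3 it was -0.47 (unadjusted p = 0.0268, adjusted p = 0.99998 from limma), and without WT sample 1 or CAR KO sample 5 it was -0.16 or -0.17. With array weights it was -0.06. Slc25a28 (mitoferrin-2), the iron carrier of other cells, was steady at 9.70 ± 0.05 in CAR KO and 9.70 ± 0.14 in WT hearts.

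Slc25a21 (chr12:56712634-57197472) had signals of 8.17, 6.87, 8.01, 7.44 and 8.88 in CAR KO samples 1 to 5, against 8.27, 8.29, 7.35, 8.01 and 8.38 in WT samples 1 to 5. CAR KO sample 5 was the highest of all and CAR KO sample 2 the lowest, and WT sample 3 was the lowest of its genotype. CAR KO minus WT gave -0.18 (CI -0.90 to 0.53). It turned to 0.07 without CAR KO sample 2 and was -0.44 without CAR KO sample 5, so 1 sample decided its direction.

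The genes most like Slc25a37 were not those most like Slc25a21, but both sets held transcripts of the red cell membrane beside other genes. Likeness was measured by Pearson's r over the 10 samples against all 14655 genes above background, as a description and after the values had been seen. The gene most like Slc25a37 was Slc4a1, the anion exchanger of the red cell membrane (r = 0.987). It was followed by Trim10 (r = 0.964) and by Epb42, a protein of the red cell membrane skeleton (r = 0.963). Tmem184a and Acp5 came next (r = 0.955 and 0.952). Slc4a1 had signals of 12.09, 11.22, 11.98, 11.82 and 11.04 in CAR KO samples 1 to 5, against 12.36, 12.04, 11.13, 12.08 and 11.80 in WT samples 1 to 5. Its low samples were those in which Slc25a37 was low. The genes most like Slc25a21 were Prpf4, a splicing factor (r = 0.959), Pklr, the pyruvate kinase of liver and red cells (r = 0.957), and Gata1, the transcription factor of erythroid precursors (r = 0.949), with Ermap and Rhag of the red cell membrane next (r = 0.949 and 0.947). Gata1 had signals of 8.88, 8.16, 8.74, 8.52 and 9.83 in CAR KO samples 1 to 5, against 8.91, 9.07, 8.31, 8.71 and 9.14 in WT samples 1 to 5. The carriers parted in CAR KO sample 5, which was low for Slc25a37 but the highest for Slc25a21 and the liver markers (mean 10.44). The erythroid markers were themselves divided there. Of the 10 measured, Gata1, Klf1 and Epor were highest of CAR KO in that sample, while Alas2 (9.60), the first enzyme of heme synthesis in red cells, Slc4a1 (11.04), Epb42 (8.84) and Hba-x (13.86) were lowest, and the mean of the list (10.85) was the second lowest of CAR KO. The 10 samples share blood and tissue content across genes, so these values are not independent, and the part of blood in the spread was not tested.

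**Figure D4:**
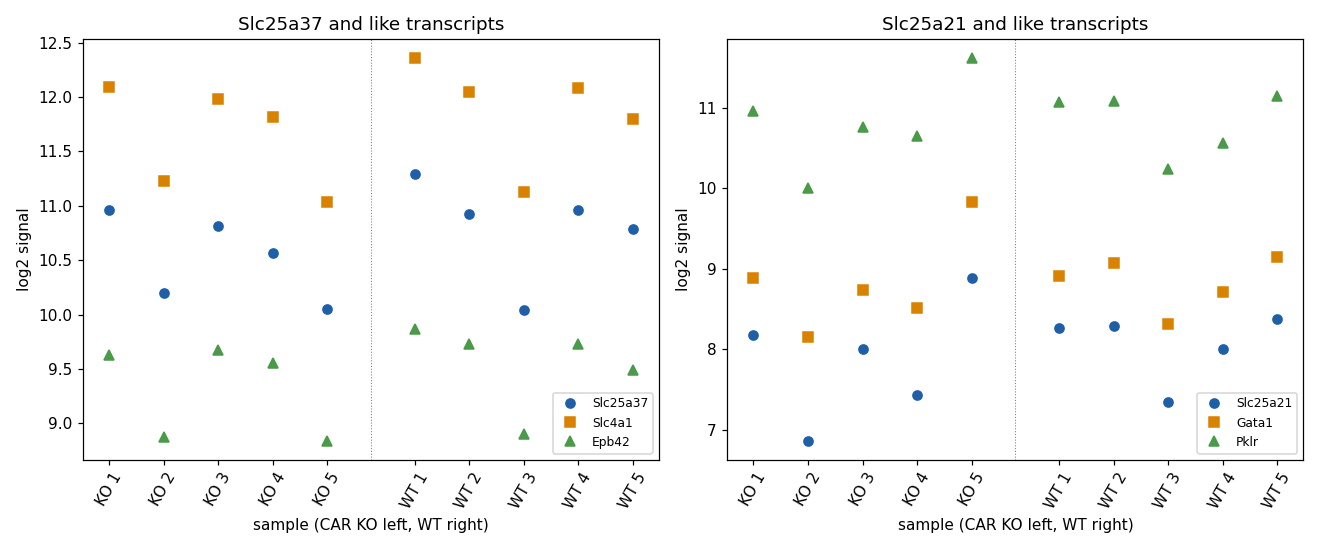
Log2 signal in each CAR KO sample (left of the dotted line) and WT sample (right) of Slc25a37 with Slc4a1 and Epb42, and of Slc25a21 with Gata1 and Pklr. CAR KO sample 5 is among the lowest for the genes on the left and the highest for those on the right.

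None of the genes around the carriers that were examined passed the adjusted test. Of the family members under other names, 4 were measured and none had an unadjusted p under 0.05. Mtch2 and Mtch1, relatives in the outer membrane, were bright at 12.77 ± 0.10 and 12.53 ± 0.17 in CAR KO hearts, against 12.73 ± 0.07 and 12.60 ± 0.03 in WT hearts. Ucp1 and Ucp3, the uncoupling proteins of brown fat and muscle, were not above background. Ucp2 was not analysed here.

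Carriers are inserted by the receptor Tomm70a, small chaperones of the intermembrane space and the Timm22 complex. All 12 genes measured of this import route were above background and none had an unadjusted p under 0.05. Tomm70a and the pore Tomm40 were the brightest, with log2 fold changes of 0.06 and 0.03, and the smallest p belonged to Timm10 at 0.09 (unadjusted p = 0.170 from limma). Of 13 other mitochondrial transporters none passed either. The channels of the outer membrane Vdac2 and Vdac1 differed by 0.03 and -0.02, Sfxn4 by 0.15 and Mpc1, a subunit of the pyruvate carrier, by -0.12 on the log2 scale. Among 10 enzymes of the shuttles that the carriers serve, 1 had an unadjusted p under 0.05, where 2.4% of all clusters passed, and nothing is read from 1 gene of 10. This was Cpt1a, which makes acylcarnitines at the outer membrane, at 9.58 ± 0.19 in CAR KO and 9.80 ± 0.13 in WT hearts (difference -0.22, unadjusted p = 0.0410, adjusted p = 0.99997 from limma). The brightest of them, Mdh2 and Got2 of the malate–aspartate shuttle, differed by 0.02 and -0.01, and Crat, with the next smallest p, by -0.09.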

How the data were processed

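Gene expression was measured in hearts of CAR KO and WT embryos, 5 samples each. The authors deposited 1 table of log2 signals per transcript cluster; the submitters' processing notes name MAS5, while the background correction and scaling behind these values are not given in the sources read. Array medians lay between 7.65 and 7.73. Of 35556 rows, 6612 control rows were left out by identifier, which left 28944. Of these, 21789 name 1 gene in the platform annotation, 1621 several and 5534 none; all 46 carriers matched RefSeq (GRCm38.p6) by Entrez identifier.

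Genotypes were compared over all clusters with limma 3.58.1 in R 4.3.3 (lmFit, eBayes, no trend), Benjamini-Hochberg adjusted, after the script was tested on simulated data. Single genes were also compared with exact permutation tests. SD is given with n = 5 per genotype. Precision rests on the count of arrays, and p-values set the genotype difference against the spread between these samples. Whether samples come from separate litters is not stated, so their independence is not known.

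The members, gene lists and tests were chosen with earlier results of these data known. Values of each sample are given for the 8 brightest carriers, the 5 with the smallest p and the ADP/ATP carriers, and for Slc25a21 after its values were seen; of the pathway lists the 2 brightest genes and the 2 with the smallest p. Alternatives were other normalizations, filters, variance models, weights, a replicate block, another row per gene and samples left out. Figures were drawn with matplotlib 3.10.9.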

Additional observations from a re-analysis of the deposited data

Results flagged for a closer look

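In each genotype, the 5 samples of every carrier and of the other gene lists were searched for 1 sample far from the rest, with a gap over 0.71 of the range. Chance flags about 1 in 20 groups, or 5.6 of the 112 examined, and 8 were found. Slc25a1 was highest in WT sample 5 (11.07, gap of 0.831 of the range). Slc25a43 and Slc25a26 were lowest in that sample (gaps of 0.758 and 0.711). Slc25a51 was lowest in CAR KO sample 1 (0.729). In CAR KO sample 2, Slc25a22 was lowest (0.753) and Slc25a2, not above background, was highest (0.737). The mean of the cardiomyocyte markers was lowest in CAR KO sample 5 (12.83, gap of 0.819) and in WT sample 5 (12.90, gap of 0.726).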

How the results depend on the processing

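No carrier was called under any of the 21 alternative fits, and Cxadr was called under all, between -2.002 (4 liver-rich samples dropped) and -1.84; leaving out single samples gave -1.97 to -1.84. For the carriers, the median difference lay between -0.020 and 0.0090. The interval lay within 1.5-fold for 44 carriers in most fits, 45 with array weights and 37 where the filter on dim rows left fewer genes; 36 met the limit of 1.2-fold. Carriers with an unadjusted p under 0.05 numbered 1, but 0 after quantile normalization or without the 3 samples richest in liver transcripts, and 0 to 2 with single samples left out (2 without WT sample 3 or CAR KO sample 1); with array weights it was Slc25a30 and without the 4 liver-rich samples Slc25a12, in place of Slc25a44. Apart from fewer genes or samples, the cause was not tested. With a replicate block on sample number, 0 carriers were called and 1 had an unadjusted p under 0.05, while clusters of the whole array with such a p numbered 1304 (696 without it). Equally numbered samples correlated at 0.07 to 0.56 in their deviations, and 4 of 5 numbers were their own best match. This is a hint of pairing from the data, not from the labels, and number 4 did not share it. Samples numbered 5 also had the lowest cardiomyocyte marker mean of each genotype. Likeness in tissue content was not told apart from pairing. Above background lay 43 carriers, or 45, with Slc25a31 and Slc25a2, for a level at the receptor median plus 1; with the mean of a gene's rows, Slc25a36 stood at place 13 and not 9. The 5 samples per genotype limit the precision.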

Other observations

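Over the 10 samples, the genes most like Slc25a4 were a mixed set. The highest likeness was to Suclg2, a subunit of succinyl-CoA ligase (Pearson's r = 0.974), and to Mfn1, which fuses mitochondria (r = 0.956). They were followed by Dynlt3, a dynein light chain (r = 0.949), Tmem38b (r = 0.945) and Rras2, a Ras-related GTPase (r = 0.938). Suclg2 and Mfn1 had their lowest signals in sample 5 of each genotype, as Slc25a4 had. Suclg2 was at 10.80 in CAR KO sample 5 and between 10.98 and 11.16 in the other CAR KO samples, and at 10.86 in WT sample 5 and between 10.97 and 11.25 in the other WT samples. These are descriptions over samples that share tissue content, with no test.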
